A study of Mus musculus with 19 samples.

Results

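The ATP-binding cassette (ABC) transporter family comprised 48 of the 22180 genes measured in isolated, reperfused mouse hearts. Members were taken by gene symbol: Abc, a subfamily letter from a to g, a number and, for some, a last letter. Each of the 48 was read by 1 probe set that lists no other gene. Each heart was taken out and kept alive in a Langendorff apparatus, where perfusate driven into the aorta enters the coronary vessels. After 20 min to stabilise, the pump was stopped for 20 min, and the tissue was frozen once flow had run again for 20 min. There were 7 hearts of wild-type C57Bl6J mice at ZT0 (lights on), 7 of wild-type C57Bl6J mice at ZT12 (lights off) and 5 of Reverb alpha KO mice at ZT12. All 3 groups thus share ischemia and reperfusion; hearts without ischemia and knockout hearts at ZT0 were not analysed here. The labels give no age or sex, no strain for the knockout mice, and no design of the deleted allele. Heart is the labelled tissue, and the 10 cardiomyocyte markers had mean log2 intensities of 11.12 to 11.25 in every heart.

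ABC proteins bind and split ATP in a pair of nucleotide-binding domains and use it to move substrates across membranes. The A subfamily and part of the G subfamily carry sterols and phospholipids, the B and C subfamilies hold drug pumps, conjugate pumps and the sulphonylurea receptors of K-ATP channels, and the D subfamily serves mainly peroxisomes. Members of the E and F subfamilies have no membrane domain and act on ribosomes. REV-ERB alpha, encoded by Nr1d1, is a nuclear receptor of the circadian clock that represses transcription. The comparisons address how the members' transcripts differ between the times of day and between genotypes after reperfusion.

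The values are log2 intensities, and array medians lay between 3.25 and 3.32. Any pair of arrays correlated at 0.972 to 0.985 over all probe sets, and the number of hearts limits the precision. The labels call the replicates biological, and each array was taken as 1 heart. The probe set for Nr1d1 read 6.30 to 6.51 in the knockout hearts, 6.46 to 7.28 in wild-type hearts at ZT12 and 5.76 to 6.67 at ZT0. Its log2 difference between genotypes at ZT12 was -0.35 (adjusted p = 0.374). Which part of Nr1d1 its probes read is not known here, so it checks nothing about the labels. Transcripts of Bmp10, a right atrial marker, were under the midpoint of their range in 1 of 7 hearts at ZT0, 4 of 7 wild-type hearts at ZT12 and 4 of 5 knockout hearts.

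A gene was called higher or lower at an adjusted p under 0.05 from limma, with Benjamini-Hochberg adjustment over all 22180 genes. Of the 48 members, 5 were higher at ZT12 than at ZT0 in wild-type hearts (Abca6, Abcg2, Abcb1a, Abcc1 and Abca8a) and 0 were lower, which is 10.4% of the family beside 1.13% of all genes called in either direction. Counting higher calls alone, the share over all genes was 0.645%, and for lower calls it was 0.482%. In knockout hearts at ZT12, 5 members were lower than in wild-type hearts at ZT12 (Abca6, Abcb1a, Abca1, Abcb4 and Abcc1) and 0 were higher, again 10.4% beside 0.73% of all genes; over all genes the lower share was 0.289% and the higher share 0.442%. Between knockout hearts at ZT12 and wild-type hearts at ZT0, 2 members were higher (Abcg2 and Abca5) and 0 were lower, or 4.17% beside 1.34% of all genes, 0.965% higher and 0.379% lower. At an unadjusted p under 0.05, limma put 10 members higher and 0 lower between the times, 4 higher and 5 lower between genotypes at ZT12, and 6 higher and 4 lower in the last comparison. Leaving out knockout replicate 2, 3 or 5 left 3 members called between genotypes at ZT12. The unadjusted counts were 20.8%, 18.8% and 20.8% of the family, beside 11.5%, 10.6% and 12.6% of all genes.

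The median member moved little. The family's median log2 difference was 0.026 between the times, 0.0084 between genotypes at ZT12 and 0.039 for knockout hearts against ZT0, beside medians of -0.0035, -0.0030 and -0.0076 over all genes. Of the 48 probe sets, 16 had a mean under that of the median gene (3.78), and 0 of these 16 were called in any comparison; limma gave them 0, 2 and 2 genes with an unadjusted p under 0.05. The comparisons use the same groups of hearts: wild-type hearts at ZT12 enter the first and the second, so a chance deviation of those 7 hearts would move both in opposite directions.

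**Figure D1:**
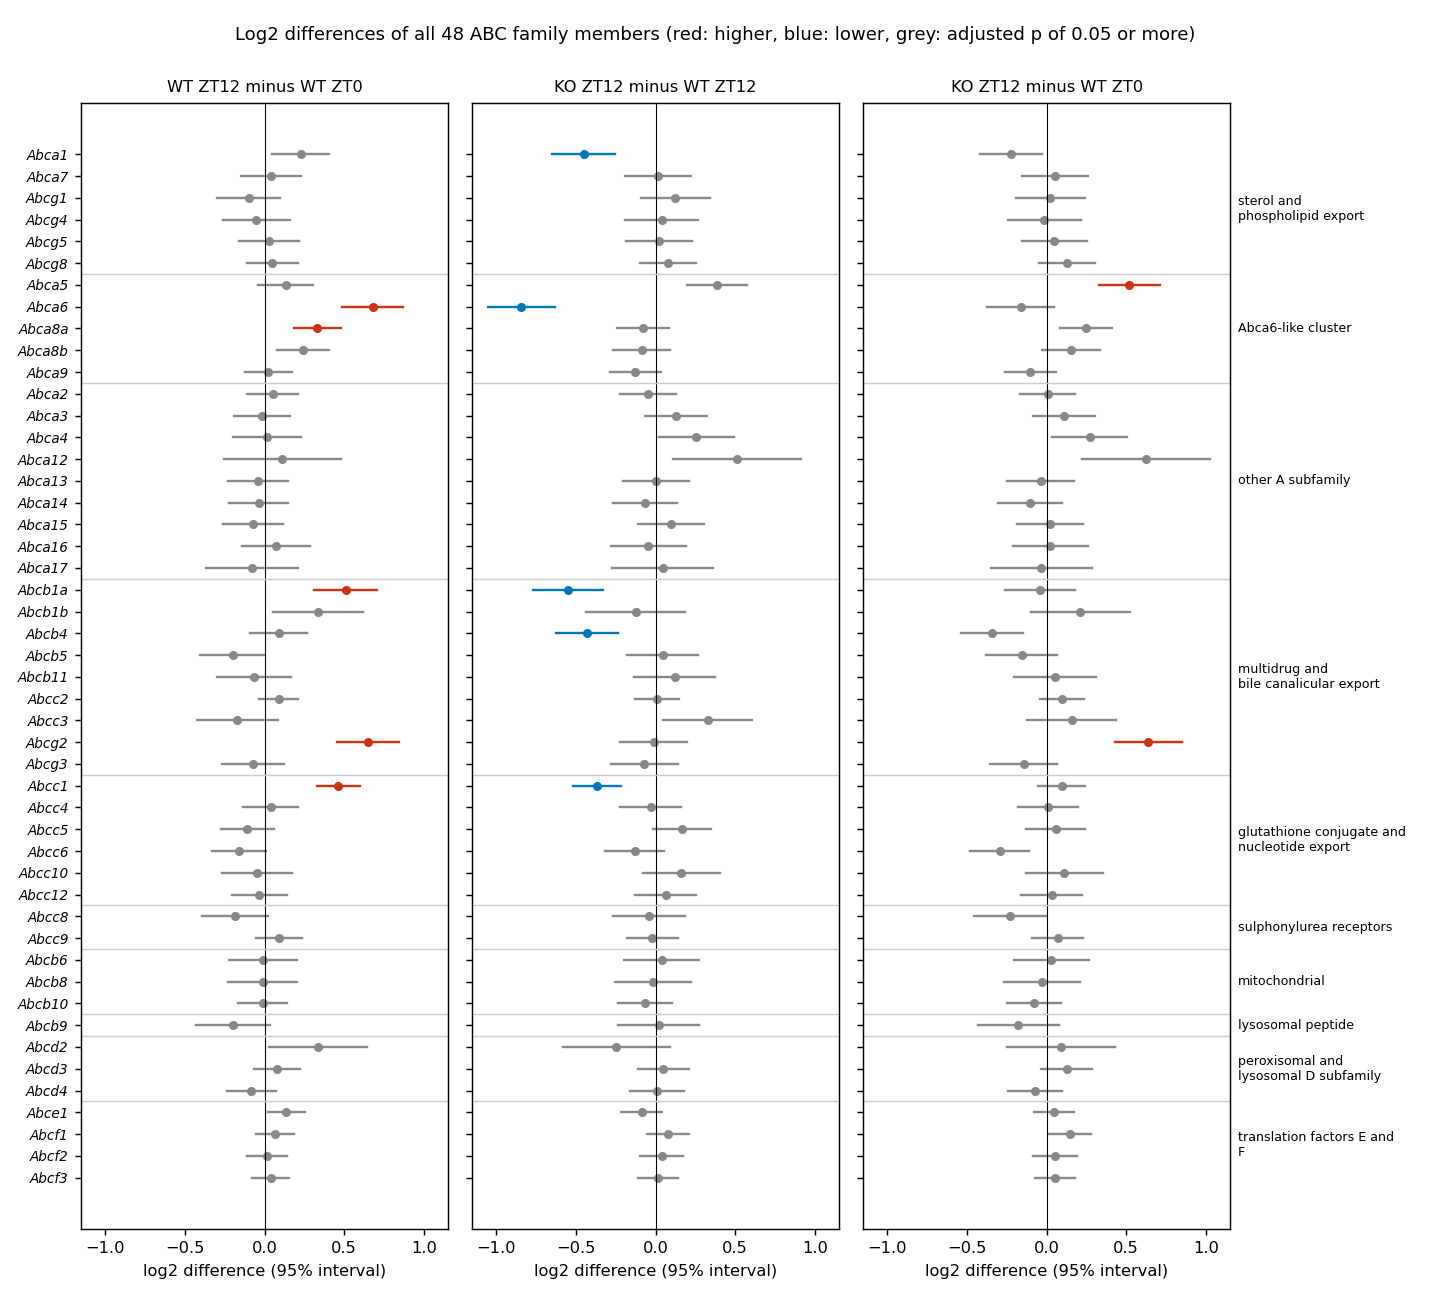
Log2 differences of the 48 members, grouped by role, with 95% intervals from limma, for WT ZT12 minus WT ZT0, KO ZT12 minus WT ZT12 and KO ZT12 minus WT ZT0; red is called higher, blue called lower and grey not called. The 5 red points of the first panel and the 5 blue points of the second share Abca6, Abcb1a and Abcc1, and most other members lie near 0 in all panels.

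Promoter sequences from RefSeq (GRCm38.p6) were held for 38 of the 48 members, in 45 windows, and for 6 of the 8 members called in any comparison. Abca6 and Abcc1 were not among them. The 250 bases before the start site were searched on both strands for the E-box CACGTG bound by clock activators, the D-box TTATGTAA or TTACGTAA bound by PAR-bZIP factors, the nuclear receptor half-site AGGTCA, a Rev-erb element (AANTAGGTCA, ATNTAGGTCA, AANTGGGTCA or ATNTGGGTCA) and the liver X receptor (LXR) element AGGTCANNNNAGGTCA; the half-site lies within part of the Rev-erb element and within the LXR element. The sequences of 4 called members are shown because 2 hold the E-box, 1 holds half-sites and 1 holds none of these letters. Abca5 and Abcb4, the other called members with a window, also held none and are not shown. Motifs are in capitals. Abca1 (chr4:53159896-53160145, minus strand) fell in knockout hearts, Abca8a (chr11:110095938-110096187, minus strand) rose at ZT12, Abcb1a (chr5:8566841-8567090, plus strand) did both, and Abcg2 (chr6:58584283-58584532, plus strand, 1 of its 3 windows) rose at ZT12.
Abca1: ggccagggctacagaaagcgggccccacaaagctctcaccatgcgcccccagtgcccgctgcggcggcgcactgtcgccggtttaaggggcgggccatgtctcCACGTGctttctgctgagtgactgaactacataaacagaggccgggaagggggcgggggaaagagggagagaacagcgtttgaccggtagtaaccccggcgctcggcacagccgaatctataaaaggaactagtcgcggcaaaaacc
Abca8a: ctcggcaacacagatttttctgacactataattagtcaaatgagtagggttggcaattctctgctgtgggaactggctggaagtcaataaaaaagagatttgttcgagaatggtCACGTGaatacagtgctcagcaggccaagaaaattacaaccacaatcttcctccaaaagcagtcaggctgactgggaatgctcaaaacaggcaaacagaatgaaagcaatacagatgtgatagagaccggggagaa
Abcb1a: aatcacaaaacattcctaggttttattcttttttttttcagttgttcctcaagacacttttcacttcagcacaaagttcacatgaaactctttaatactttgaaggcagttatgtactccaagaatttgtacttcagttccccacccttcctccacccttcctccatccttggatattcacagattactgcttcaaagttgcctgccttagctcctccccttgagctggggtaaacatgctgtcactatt
Abcg2: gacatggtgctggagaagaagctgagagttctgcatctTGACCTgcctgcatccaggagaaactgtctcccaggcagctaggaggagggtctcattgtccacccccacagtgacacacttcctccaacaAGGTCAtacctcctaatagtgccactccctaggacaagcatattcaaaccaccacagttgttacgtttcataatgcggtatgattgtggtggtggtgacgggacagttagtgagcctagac

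Counted from the start site, the E-box begins at -147 in Abca1 and at -136 in Abca8a. It was found in 5 of the 45 member windows, beside 6.02% of 32851 promoter windows; the other members with it were Abca15, Abcc4 and Abcf1, none of which was called. In the Abcg2 window the half-site begins at -212 on the reverse strand, where it reads TGACCT, and at -121 on the forward strand. Half-sites were present in 7 of the 45 member windows and in 14.0% of all windows. The D-box was in 0 of 45 (0.931% of all windows), the Rev-erb element in 0 of 45 (0.648%) and the LXR element in 0 of 45 (0.0152%). Such a match is a run of letters and not a bound site. Only these exact letters were searched, so an element that departs from them was not counted. The LXR letters were in 5 of 32851 windows, too few for 0 of 45 to tell whether members hold such an element.

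Lipid transporters of the Abca6 group lie side by side on chromosome 11, in the order Abca8b, Abca8a, Abca9, Abca6 and Abca5, and some of these 5 neighbours were called; differences between them were not tested. Between the times 2 of 5 rose (Abca6 and Abca8a), between genotypes at ZT12 1 of 5 fell (Abca6), and in knockout hearts against ZT0 1 of 5 was higher (Abca5). Over all genes, 1.13%, 0.73% and 1.34% were called in either direction. Median differences of the 5 were 0.24, -0.088 and 0.15.

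Abca6, thought to carry lipids, had the largest change of any member both between the times and between genotypes at ZT12. Its log2 intensity was 5.56 at the lowest, 5.62 at the median and 5.89 at the highest in wild-type hearts at ZT0, and 6.18, 6.31 and 6.54 at ZT12. In the 5 knockout hearts at ZT12 it read 5.20, 5.46, 5.52, 5.53 and 5.87. Every wild-type heart at ZT12 was thus above every heart of both other groups. The rise from ZT0 to ZT12 was 0.68 on the log2 scale (SE 0.092, 1.60-fold, adjusted p = 0.000205 by limma). Knockout hearts were lower than wild-type hearts at ZT12 by 1.79-fold, a log2 difference of -0.84 (SE 0.101, adjusted p = 0.000105). Against ZT0 the knockout difference was -0.16 with a 95% interval of -0.37 to 0.05, and those groups overlapped. A lower array value from whole hearts does not tell fewer cells of a type from less RNA per cell, here or for any member.

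Groups that did not overlap were found for 3 members between the times, all higher at ZT12 (Abca6, Abcb1a and Abcc1), beside 0.528% of all genes (0.902% in either direction). Between genotypes at ZT12, 4 members lay below without overlap (Abca1, Abca6, Abcb1a and Abcc1), beside 0.428% of all genes, and 1 above (Abca5), beside 0.969% (1.4% in either direction). For knockout hearts against ZT0, 2 members lay above (Abca5 and Abcg2; 1.19% of all genes) and 1 below (Abcb4; 0.532%), where either direction gave 1.72%.

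Abca8a, whose human relative is linked to cholesterol efflux, rose between the times without a clean separation. At ZT0 it read 7.03 at the lowest, 7.21 at the median and 7.45 at the highest, and at ZT12 7.36, 7.58 and 7.63. The difference was 0.33 (SE 0.072, 1.26-fold, adjusted p = 0.0208), and the call was lost when any of 4 single hearts was left out (replicate 1 or 2 at ZT0, or 2 or 7 of wild type at ZT12; adjusted p 0.0502 to 0.0519). Knockout hearts spanned 7.32 to 7.60, overlapping wild-type hearts at ZT12, with a difference of -0.08 (95% interval -0.24 to 0.08). Its neighbour Abca8b had differences of 0.24 (adjusted p = 0.179) between the times and -0.09 (adjusted p = 0.776) between genotypes. The similar sequences of Abca8a and Abca8b could share probes, so their separate values are uncertain. Abca9, between them and Abca6 on the chromosome, read 6.39 to 6.64 at ZT0, 6.42 to 6.67 at ZT12 and 6.16 to 6.57 in knockout hearts, with differences of 0.02 and -0.13 that were not called (95% intervals -0.12 to 0.17 and -0.29 to 0.03).

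Abca5, a transporter of lysosomal membranes whose loss in mice leads to heart muscle disease, was the member of this neighbourhood that stood higher in knockout hearts. Its values were 4.73 at the lowest, 5.11 at the median and 5.35 at the highest at ZT0, 5.09, 5.23 and 5.38 in wild-type hearts at ZT12, and 5.45, 5.55, 5.60, 5.71 and 5.79 in the knockout hearts. All 5 knockout hearts were above all 14 wild-type hearts. Against ZT0 the difference was 0.52 (SE 0.091, 1.43-fold, adjusted p = 0.00354). Against wild-type hearts at ZT12 it was 0.39 (SE 0.091, adjusted p = 0.0507), outside the threshold. In 2 of 11 other settings it passed: without genes under the median level (adjusted p = 0.0196) and with the prior variance following the intensity (0.0310). Of 19 fits that each left out 1 heart, 3 passed (0.0223 to 0.0492). These lacked replicate 2, 3 or 7 of ZT0, which enter the shared spread. Over the 19 fits the adjusted p reached 0.145. Nr1d1 lies on the same chromosome 11 as this cluster. Between genotypes at ZT12, 11 of 1649 genes of chromosome 11 were called (0.667%), beside 0.73% of all genes tested. Between Nr1d1 and Abca6 it was 2 of 257 (0.778%), a count without Abca6 itself or genes on the other side of Nr1d1. Thra, a neighbour of Nr1d1, was lower between genotypes at ZT12 (-0.37, adjusted p = 0.0401 by limma). It was also lower for knockout hearts against ZT0 (-0.73, adjusted p = 2.55e-05) and between the times (-0.35, adjusted p = 0.0227). The part of the region around Nr1d1 in the members' differences was not tested.

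**Figure D2:**
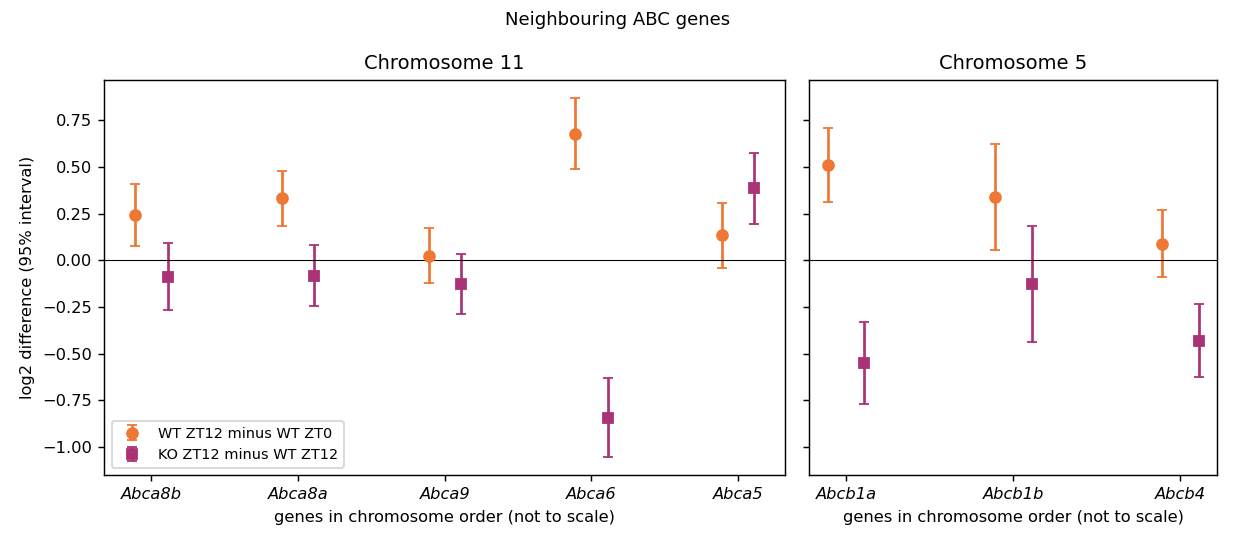
Log2 differences (vertical axis, with 95% intervals) of neighbouring members in chromosome order, the Abca8b to Abca5 cluster of chromosome 11 and the Abcb1a to Abcb4 cluster of chromosome 5; circles are WT ZT12 minus WT ZT0 and squares KO ZT12 minus WT ZT12. Abca6 departs in opposite directions (0.68 and -0.84) while Abca9 beside it stays near 0 and Abca5 on its other side is above 0 in the knockout (0.39).

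On chromosome 5 the drug pumps Abcb1a and Abcb1b and the phospholipid floppase Abcb4 are neighbours. They belong to the 9 members that export drugs and bile constituents, of which 2 rose between the times (Abcb1a and Abcg2), 2 fell between genotypes at ZT12 (Abcb1a and Abcb4) and 1 was higher in knockout hearts than at ZT0 (Abcg2). Calls in either direction over all genes were 1.13%, 0.73% and 1.34% in these comparisons. The median differences of the 9 were 0.087, -0.012 and 0.052.

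Abcb1a encodes a P-glycoprotein, which pumps drugs out of capillary endothelium. At ZT0 it read 5.90 at the lowest, 6.22 at the median and 6.32 at the highest, and in wild-type hearts at ZT12 6.44, 6.59 and 7.05. Knockout hearts read 5.96, 6.04, 6.08, 6.28 and 6.31. The wild-type hearts at ZT12 lay above both other groups without overlap, and the knockout range fell inside that of ZT0. The rise between the times was 0.51 (SE 0.096, 1.42-fold, adjusted p = 0.00681) and the knockout difference at ZT12 was -0.55 (SE 0.105, 1.46-fold, adjusted p = 0.0128). The latter was not called when the fit held only those 2 groups (adjusted p = 0.0622). Between knockout hearts and ZT0 it was -0.04 (95% interval -0.26 to 0.18). The level of endothelial RNA is given beside it, and its part was not tested: the mean of 12 was 7.24 to 7.46 at ZT0, 7.05 to 7.38 in wild-type hearts at ZT12 and 7.07 to 7.31 in knockout hearts. Of the 12, limma called 1 lower between the times and 0 in the other comparisons; at an unadjusted p under 0.05 it gave 1 higher and 4 lower between the times, 1 and 1 between genotypes at ZT12, and 1 and 3 for knockout hearts against ZT0. The called marker was Kdr, a VEGF receptor, with a log2 difference of -0.52 (adjusted p = 0.00160) between the times and 0.27 (adjusted p = 0.262) between genotypes. Flt1, another VEGF receptor, differed by 0.22 (adjusted p = 0.0832) and -0.07.

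The second P-glycoprotein gene, Abcb1b, was not called. It read 4.51 to 5.33 at ZT0, 4.87 to 5.78 in wild-type hearts at ZT12 and up to 5.69, with a median of 5.11, in the knockout, with differences of 0.34 (SE 0.136, adjusted p = 0.329) and -0.12 (SE 0.149, adjusted p = 0.827). Abcb1a and Abcb1b are close in sequence, and probes may read both, so the values of either are uncertain.

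Abcb4, which moves phosphatidylcholine to the outer leaflet and is best known from bile canaliculi, was lower in the knockout and was not called between the times. Its values were 6.31, 6.41 and 6.55 (lowest, median, highest) at ZT0 and 6.25, 6.60 and 6.89 at ZT12 in wild-type hearts. In the knockout they were 5.92, 6.03, 6.14, 6.14 and 6.25. The knockout hearts lay below every heart at ZT0 and met the wild-type range at ZT12 only at its lowest heart. The difference at ZT12 was -0.43 (SE 0.094, 1.35-fold, adjusted p = 0.0311), a call lost when any of 7 single hearts was left out (wild-type ZT12 replicate 5, 6 or 7, or knockout replicate 2, 3, 4 or 5; adjusted p 0.0587 to 0.0926). Against ZT0 it was -0.34 (adjusted p = 0.0789), and between the times 0.09 (95% interval -0.09 to 0.27).

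Abcg2, the breast cancer resistance protein that exports urate, porphyrins and drugs, was higher at ZT12 than at ZT0 in wild-type hearts, and the knockout hearts at ZT12 lay within the range of wild-type hearts at ZT12. At ZT0 it read 5.45 at the lowest, 5.73 at the median and 5.89 at the highest. Wild-type hearts at ZT12 read 5.88, 6.37 and 6.55, and knockout hearts 6.19, 6.29, 6.31, 6.40 and 6.43. A single wild-type heart at ZT12, replicate 1, had the value 5.88 and overlapped the ZT0 range; the other 6 began at 6.33. The rise between the times was 0.65 (SE 0.093, 1.57-fold, adjusted p = 0.000325), and without replicate 1 it was 0.73 (adjusted p = 1.57e-05). Knockout hearts stood above ZT0 by 0.64 (SE 0.102, 1.56-fold, adjusted p = 0.00121) with no overlap. Between genotypes at ZT12 the difference was -0.01 with a 95% interval of -0.22 to 0.20, so a genotype difference within those bounds could not be seen.

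Other pumps of this group had low values. Abcb5, Abcb11, Abcc2, Abcc3 and Abcg3 all lay under the median gene, and none was called in any comparison. The largest difference among them was that of Abcc3, at 0.33 between genotypes at ZT12 (SE 0.135, adjusted p = 0.373), with knockout hearts at 2.62 to 3.39 and wild-type hearts at 2.28 to 3.08.

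Of the 6 conjugate and nucleotide exporters, 1 (Abcc1) was called, both between the times and between genotypes at ZT12. All genes were called at 1.13% and 0.73% in these comparisons. For knockout hearts against ZT0, 0 of the 6 were called, beside 1.34% of all genes. Abcc1, or MRP1, exports glutathione conjugates and leukotriene C4. Its lowest, median and highest values were 6.28, 6.32 and 6.56 at ZT0 and 6.72, 6.82 and 6.95 in wild-type hearts at ZT12. The knockout hearts read 6.33, 6.44, 6.45, 6.55 and 6.64. Wild-type hearts at ZT12 were above all others, and the knockout hearts overlapped the ZT0 range, with 1 heart above it. The difference between the times was 0.46 (SE 0.065, 1.38-fold, adjusted p = 0.000293). At ZT12 the knockout difference was -0.37 (SE 0.071, 1.29-fold, adjusted p = 0.0154; 0.0515 without knockout replicate 3), and against ZT0 it was 0.09 (95% interval -0.05 to 0.24).

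Its relatives Abcc4, Abcc5, Abcc6, Abcc10 and Abcc12 were not called. Between the times their differences ran from -0.16 to 0.04, and between genotypes at ZT12 from -0.13 to 0.16. The nearest to a call was Abcc6, a liver transporter whose loss causes ectopic calcification: it read 3.56 to 4.05 at ZT0 and 3.35, 3.40, 3.44, 3.53 and 3.63 in knockout hearts, a difference of -0.29 (SE 0.089, adjusted p = 0.120), from a probe set under the median gene.

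**Figure D3:**
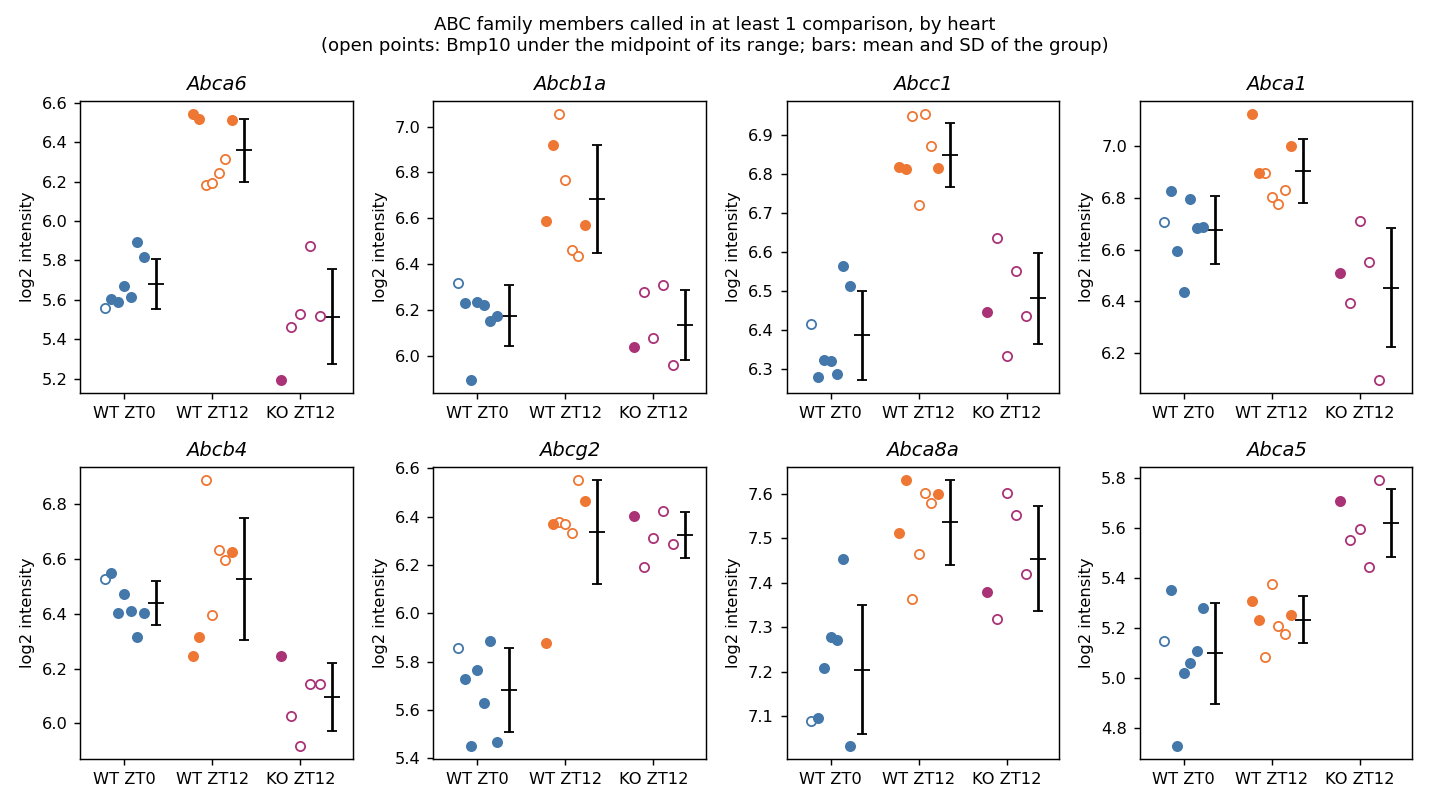
Log2 intensity of the 8 members called in any comparison, 1 point per heart, in WT ZT0 (n = 7), WT ZT12 (n = 7) and KO ZT12 (n = 5), with mean and SD bars; open points are hearts under the Bmp10 midpoint. Abca6, Abcb1a and Abcc1 are high in WT ZT12 and low in the other groups, Abcg2 is high in both groups at ZT12, and Abca5 is highest in KO ZT12.

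Among the 6 exporters of sterol and phospholipid, 1 (Abca1) was called between genotypes at ZT12, beside 0.73% of all genes. Between the times and for knockout hearts against ZT0, 0 of the 6 were called, beside 1.13% and 1.34% of all genes. Abca1 loads cholesterol and phospholipid onto apolipoprotein A-I, the first step of HDL formation. Its values were 6.44, 6.69 and 6.83 (lowest, median, highest) at ZT0 and 6.78, 6.90 and 7.13 in wild-type hearts at ZT12. In the knockout they were 6.10, 6.39, 6.51, 6.55 and 6.71. All knockout hearts were below all wild-type hearts at ZT12 and overlapped those at ZT0. The knockout difference at ZT12 was -0.45 (SE 0.094, 1.37-fold, adjusted p = 0.0244). It was lost without knockout replicate 2 (adjusted p = 0.0639) or 5 (0.0705), and with only the 2 groups in the fit (0.0818). The difference between the times, 0.23 (SE 0.086), had an adjusted p of 0.281, and that of knockout hearts against ZT0 was -0.22 (adjusted p = 0.316).

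Abcg1, which passes cholesterol to mature HDL and is often described beside Abca1, was not called. It read 4.42 to 4.90 at ZT0, 4.13 to 4.73 at ZT12 and 4.50 to 4.79 in the knockout, and its differences were -0.10 (95% interval -0.30 to 0.10) and 0.12 (-0.09 to 0.34). For Abca7, Abcg4, Abcg5 and Abcg8 the differences lay between -0.05 and 0.05 with time and between 0.01 and 0.08 with genotype. Of these, Abcg4, Abcg5 and Abcg8 were under the median gene; Abcg5 and Abcg8 together form the sterol exporter of liver and gut.

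Genes around sterol export gave 1 call in all. Of 11 measured LXR receptors and targets, 0 were called in any comparison (1, 1 and 2 at an unadjusted p under 0.05 by limma), with Mylip nearest between the times (0.30, adjusted p = 0.0579) and Smpdl3a between genotypes at ZT12 (0.27, adjusted p = 0.0987). Of 9 sterol carriers and acceptors, Npc1, which moves cholesterol out of lysosomes, was higher at ZT12 in wild-type hearts by 0.40 (adjusted p = 0.0414); 0 were called in the other comparisons (2 and 1 at an unadjusted p under 0.05). Macrophage markers had a mean of 6.44 to 6.70 at ZT0, 6.32 to 6.80 in wild-type hearts at ZT12 and 5.66 to 6.64 in the knockout; their median difference between genotypes at ZT12 was -0.27, with 8 of 9 negative and 0 of 9 called (1 at an unadjusted p under 0.05). Between the times their median was -0.11, with 0 of 9 called (0 at an unadjusted p under 0.05 by limma). For knockout hearts against ZT0 it was -0.34, with 0 of 9 called and 1 higher and 6 lower at an unadjusted p under 0.05, beside a difference of -0.22 (adjusted p = 0.316) for Abca1. Their part in the lower Abca1 was not tested.

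The sulphonylurea receptors are the regulatory subunits through which K-ATP channels sense nucleotides during ischemia. Abcc9 (SUR2), the ventricular form, was not called: it read 9.85 to 10.13 at ZT0, 10.05 to 10.21 at ZT12 and 9.90, 9.91, 10.17, 10.24 and 10.31 in the knockout. Its differences were 0.09 (95% interval -0.06 to 0.23) between the times and -0.02 (-0.18 to 0.14) between genotypes at ZT12. Abcc8 (SUR1), the atrial form in mice, read 5.87 to 6.27 at ZT0, 5.55 to 6.07 at ZT12 and 5.39 to 6.07, with a median of 5.96, in the knockout. Its differences were -0.19 (adjusted p = 0.486) between the times and -0.04 (adjusted p = 0.935) between genotypes at ZT12. For knockout hearts against ZT0 the difference of Abcc8 was -0.23 (unadjusted p = 0.0463, adjusted p = 0.385 by limma). The pore subunits Kcnj8 and Kcnj11 were not called either, at 0.09 and -0.18 between the times and -0.10 and 0.09 between genotypes at ZT12. At an unadjusted p under 0.05 limma gave 1 of these 2, lower, between the times and 0 in the other comparisons.

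Apart from Abca5, described above, 11 further members that work inside the cell were not called. The 3 mitochondrial members, Abcb6, Abcb8 and Abcb10, tied to porphyrin and iron handling, had differences between -0.013 and -0.0087 with time and between -0.068 and 0.038 with genotype at ZT12. The ribosome recycling factor Abce1 and the translation factors Abcf1, Abcf2 and Abcf3 differed by 0.014 to 0.13 with time and by -0.087 to 0.079 with genotype. Between the times Abce1 had the lowest adjusted p of these 4, with values of 8.51 to 8.77 at ZT0, 8.65 to 8.87 in wild-type hearts at ZT12 and 8.61 to 8.68 in the knockout (difference 0.13, adjusted p = 0.344). For knockout hearts against ZT0 it was Abcf1, at 0.15 (adjusted p = 0.338). In the D subfamily, the peroxisomal importers Abcd2 and Abcd3 differed by 0.34 (SE 0.148, adjusted p = 0.381) and 0.08 between the times, and lysosomal Abcd4, which exports vitamin B12, by -0.08. Lysosomal Abcb9, a peptide transporter, differed by -0.20 (adjusted p = 0.523). Of these 11 members 0 were called in any comparison; limma gave 2 an unadjusted p under 0.05 between the times (Abcd2 and Abce1), 0 between genotypes at ZT12 and 1 (Abcf1) for knockout hearts against ZT0.

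The remaining 9 members of the A subfamily were not called. Their differences with time ran from -0.08 to 0.11, with 0 of 9 at an unadjusted p under 0.05. Abca12, a lipid transporter of the skin barrier, spread most: it read 4.17 to 5.05 at ZT0, 4.08 to 4.88 in wild-type hearts at ZT12 and 4.39, 4.99, 5.14, 5.28 and 5.92 in the knockout. Its difference was 0.51 (SE 0.193, adjusted p = 0.314) between genotypes at ZT12 and 0.62 (adjusted p = 0.133) against ZT0. Abca4, the retinoid transporter of photoreceptors, was under the median gene and differed by 0.26 (adjusted p = 0.417) between genotypes at ZT12. Abca2 of myelin and Abca3 of lung surfactant differed by -0.05 and 0.13 between genotypes at ZT12. Abca13 to Abca17 lay under the median gene, and Abca14 to Abca16 resemble each other, so their separate values are uncertain.

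**Figure D4:**
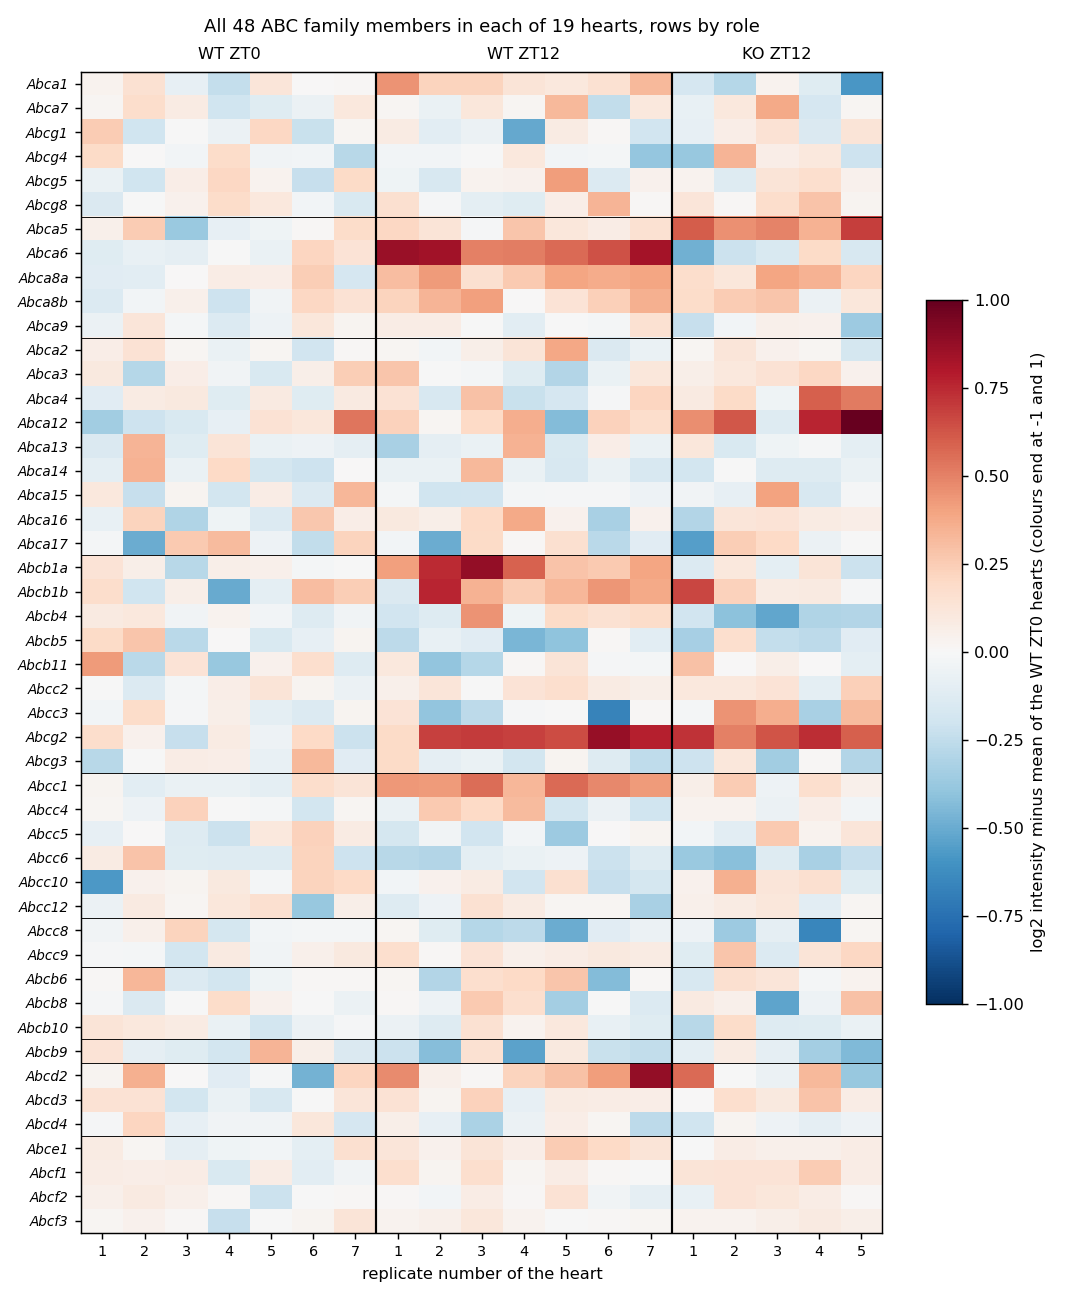
Log2 intensity of the 48 members in each of the 19 hearts minus the member's mean over the 7 WT ZT0 hearts (colour, ending at -1 and 1), with members in rows by role and hearts in columns by group and replicate number. The rows of Abca6, Abcb1a and Abcc1 are red in the WT ZT12 columns and pale in KO ZT12, the row of Abcg2 is red in both apart from WT ZT12 replicate 1, and Abca5 is red in KO ZT12.

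Regulators and partners outside the family were read for the same hearts. The PAR-bZIP factors, which bind D-boxes and drive daily rhythms of detoxification genes, rose between the times: Dbp by 2.52 (adjusted p = 1.96e-12), Hlf by 0.76 (adjusted p = 3.53e-05) and Tef by 0.72 (adjusted p = 5.9e-05), while their antagonist Nfil3 fell by 0.72 on the log2 scale (adjusted p = 0.000499). Between genotypes at ZT12 0 of these 4 were called (2 at an unadjusted p under 0.05 by limma), with Nfil3 at 0.42 (adjusted p = 0.119). Knockout hearts held Dbp, Hlf and Tef above ZT0 by 2.73, 0.94 and 0.93.

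Of 6 xenobiotic receptors and partners, 10 genes of glutathione synthesis and conjugation, 7 of peroxisomes and 7 of mitochondrial haem and iron-sulphur work, 0 were called in any comparison. At an unadjusted p under 0.05 limma gave 0, 1, 2 and 1 genes of these lists between the times, 0, 2, 2 and 3 between genotypes at ZT12 and 2, 4, 2 and 1 for knockout hearts against ZT0. Gclm, a subunit of the enzyme that limits glutathione synthesis, came nearest between the times, at 0.31 (adjusted p = 0.121). Cftr, Tap1 and Tap2, ABC proteins with other names, were not called either (1, 0 and 0 at an unadjusted p under 0.05).

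Atrial tissue differed between hearts and moved with the groups. The mean of 10 atrial muscle markers was 8.14 to 9.25 at ZT0, 6.66 to 9.10 in wild-type hearts at ZT12 and 6.38 to 9.07 in the knockout, and their median differences were -0.59, -0.50 and -1.02. Of these 10, 0 were called at ZT12 between times or genotypes and 1 (Gpr22, higher) for knockout hearts against ZT0, with 2, 0 and 8 at an unadjusted p under 0.05 by limma. Abca6 read 6.18 to 6.31 in the 4 wild-type hearts at ZT12 that were low in Bmp10 and 6.51 to 6.54 in the other 3, a difference that was not tested. The 4 knockout hearts low in Bmp10 read 5.46 to 5.87 for Abca6 and the remaining knockout heart 5.20. Hearts low in Bmp10 still differed in the mean of the 10 atrial markers. It was 6.66 to 8.22 in the 4 wild-type hearts at ZT12 and 6.38 to 8.51 in the 4 knockout hearts. Between these 4 and 4 hearts at ZT12 low in Bmp10, the genotype differences were -0.64 for Abca6, -0.52 for Abcb1a, -0.38 for Abcc1, -0.39 for Abca1 and -0.57 for Abcb4. Among so few hearts 0 members were called, and 3 were higher and 6 lower at an unadjusted p under 0.05 by limma. The share of all genes at that unadjusted threshold was not computed for this fit, so these counts cannot be set against it. Without the hearts low in Bmp10, the differences between the times were 0.82 for Abca6 (adjusted p = 0.00285), 0.58 for Abcg2 (0.176), 0.54 for Abcb1a (0.0971), 0.43 for Abcc1 (0.118) and 0.36 for Abca8a (0.278). That left 1 knockout heart, which differed from wild type at ZT12 by -1.33 for Abca6 (adjusted p = 0.0131), -0.65 for Abcb1a, -0.37 for Abcc1, -0.50 for Abca1 and -0.15 for Abcb4, its spread being taken from the other groups. For knockout hearts against ZT0, Abcg2 then differed by 0.75 (adjusted p = 0.383) and Abca5 by 0.62 (adjusted p = 0.430). With the Bmp10 class as a block over all hearts, the same 5, 5 and 2 members were called.

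Other cell types were read by their markers. Fibroblast markers had means of 7.58 to 7.87, 7.42 to 7.81 and 7.06 to 7.92 in the 3 groups, with 0 of 10 called in any comparison (2, 1 and 1 at an unadjusted p under 0.05). Adipocyte markers had means of 5.12 to 6.05, 4.90 to 6.54 and 5.10 to 6.69. Of the 7 measured, 0 were called between the times, 1 between genotypes at ZT12 and 1 for knockout hearts against ZT0 (0, 2 and 1 at an unadjusted p under 0.05). The called marker was Plin4, a lipid droplet protein, higher in knockout hearts by 0.46 (adjusted p = 0.0223) at ZT12 and by 0.59 (adjusted p = 0.00121) against ZT0. Between genotypes at ZT12 the median difference of the 7 was 0.23, with 5 positive and 2 negative (Adipoq at -0.031 and Cidec at -0.029). Pericyte, smooth muscle and neutrophil lists had 0 called genes in each comparison by limma (0, 2 and 1 between the times, 0 of each between genotypes at ZT12 and 1, 1 and 0 for knockout hearts against ZT0 at an unadjusted p under 0.05). The part of these cell types in the members' differences was not tested.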

How the data were processed

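Transcripts were measured on Affymetrix arrays in 19 hearts. The deposited values are log2 intensities that the authors summarised per probe set with RMA, per the submitters' processing notes; the scale was taken as log2 because values ran from 0.21 to 12.88. No version of RMA and no genome build is given in the sources used here. Of 41345 probe sets, 23521 list 1 gene in GEO's platform annotation, 1814 several and 16010 none, and the first were used. For genes with several, the probe set with the highest mean was kept; all 48 members had 1. All 48 matched a GRCm38.p6 gene table by Entrez identifier.

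Tests used limma 3.58.1 (R 4.3.3), with all 19 arrays in a 3-group linear model, eBayes without trend, two-sided tests, and Benjamini-Hochberg adjustment over 22180 genes. RMA equalises arrays, which would hide a shift of all genes. The analysis was tested on simulated data. P-values set a difference of group means against the spread between hearts, pooled over the groups and moderated over all genes.

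Members and gene lists were chosen with earlier results of these data known. Named in full were members called in any comparison, the markers Abca6, Abcb1a, Abcb4, Abcc1 and Abca1, the 5 with the smallest p where fewer than 5 were called, and the sterol export, Abca6-like and sulphonylurea receptor groups; outside the family, called genes or the one with the smallest p. Other members with values of their own were named after these were seen. Alternatives were another probe set rule, a filter on dim genes, other normalizations, an intensity trend, other sets of arrays, the replicate block, atrial tissue, and leaving out each heart. Arrays low in Bmp10 were those under the midpoint of its lowest and highest value.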

Additional observations from a re-analysis of the deposited data

Results flagged for a closer look

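The highest or lowest heart of each group was set against its neighbours for 19 named members (57 groups); 4 hearts stood apart, and chance alone flags about 1 in 20 groups. Abcb1a read 5.90 in replicate 3 at ZT0, where the next heart read 6.16; without it the rise of Abcb1a between the times was 0.46 (adjusted p = 0.0181 by limma). Abcg2 read 5.88 in replicate 1 of wild type at ZT12, the next heart being at 6.33. Abcg4 read 3.10 in replicate 7 of wild type at ZT12, below the next at 3.46. Abcg5 read 3.67 in replicate 5 of wild type at ZT12, where the next heart down lay 0.377 lower. Abcg4 and Abcg5 were not called in any comparison.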

How the results depend on the processing

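Counts of called members held within 1.5 times of 5 (between the times), 5 (genotypes at ZT12) and 2 (knockout against ZT0) under another probe set rule, a filter on dim genes, quantile normalization again, median centring, an intensity trend and the atrial covariate. The count between the times was 1 without hearts low in Bmp10, a setting that left 1 knockout heart. Between genotypes at ZT12 the count was 2 with only the compared groups in the fit, and 0 with only hearts low in Bmp10. The latter alternative was chosen after seeing the data, as was the Bmp10 class as a block. Over all genes, calls between the times went from 250 to 431 without dim genes and 51 without hearts low in Bmp10. Between genotypes at ZT12 they went from 162 to 283 and 5, to 267 with an intensity trend, 72 with only the compared groups, 88 with the block below and 4 with only hearts low in Bmp10. For knockout against ZT0 they went from 298 to 527 without dim genes. The atrial covariate gave 165, the Bmp10 class 149, and other alternatives 187 and 182. Leaving out single hearts gave 4 to 5, 3 to 6 and 2 to 3 called members; the 3 arose without knockout replicate 2, 3 or 5.

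No pairing by replicate number was seen. Median correlations of same-numbered deviations were -0.011, 0.0017 and 0.049, beside -0.0030, -0.0016 and -0.017 for other numbers. Of the pairs, 0 exceeded 0.1 or matched best by number. Such correlations cannot show that same-numbered hearts were handled apart. With the replicate block the counts were 4, 2 and 2. Between the times Abca8a was then not called (adjusted p = 0.0590 by limma). Between genotypes at ZT12 Abcb1a and Abca6 were the 2 called, and Abcc1 (adjusted p = 0.102), Abca1 (0.0843) and Abcb4 (0.134) were not.

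Abca1 also lost its call with the atrial covariate (adjusted p = 0.0692) and Abcb4 with only the compared groups (0.129); the cause was not tested. Abcb4 against ZT0 was called without dim genes (0.0319), with an intensity trend (0.0407), with only the compared groups (0.0448) and without wild-type ZT12 replicate 3 (0.0403). Differences near 0 changed sign: Abcb4 between the times to -0.030 without hearts low in Bmp10, Abcg2 between genotypes at ZT12 to 0.021 with the replicate block and 0.17 without hearts low in Bmp10. With single hearts left out, Abcg2 there spanned -0.088 to 0.024 and Abcb1a against ZT0 spanned -0.089 to 0.00095. The median SE of a member's difference was 0.089 between the times and 0.097 in the comparisons with the knockout, which limits what these groups can show.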

Other observations

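Whether members vary together within groups was examined for 6 pairs, as deviations from group means over 19 hearts. Abca6 and its neighbour Abca9 had r = 0.57 (permutation p = 0.0332, adjusted 0.0995 over the 6) and rho = 0.57 (permutation p = 0.0164, adjusted 0.0659). Without the 2 hearts farthest from the median r was 0.44, and it was 0.49 in 9 hearts low in Bmp10 and 0.66 in the other 10. Abca9 and the mean of the fibroblast markers had r = 0.68 (permutation p = 0.0125, adjusted 0.0752) and rho = 0.57 (permutation p = 0.0220, adjusted 0.0659), falling to r = 0.38 without 2 hearts, with r = 0.82 and 0.37 in the same classes. Abca8a and Abca9 had r = 0.31, Abcb1a and the endothelial mean r = 0.17, Abcc9 and its pore partner Kcnj8 r = 0.090, and Abca1 and Abcg1 r = 0.052 (permutation p = 0.230, 0.553, 0.820 and 0.826, with rho of 0.31, 0.16, 0.22 and 0.065). For Abcb1a and the endothelial mean, r was -0.76 in the 7 hearts at ZT0 and 0.53 in the 7 wild-type hearts at ZT12, so the pooled value covers opposite signs. After adjustment 0 of the 6 pairs passed 0.05.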
